A study of Mus musculus with 2 samples.

Results

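E-cadherin, encoded by Cdh1, and the catenins that bind its cytoplasmic tail were followed in mouse bone marrow cells sorted on E-cadherin and cKIT and sequenced as single cells. The genes were taken by symbol from the gene table of both count matrices, which listed 5 of them among 31053 genes: Cdh1, Ctnnb1 (beta-catenin), Ctnna1 (alpha-catenin), Ctnnd1 (p120-catenin) and Jup (plakoglobin, also called gamma-catenin). The study compared E-cadherin+cKIT+ cells with E-cadherin+cKIT- cells, to relate late progenitors to basophil and mast cell precursors. Both populations came from bone marrow of FVB mice by the labels, while the paper names wild-type mice in its text and VaviCre;mTmG mice, which carry a Cre recombinase active in blood cells and a fluorescent reporter, in a legend. No treatment was given, and the age of the mice is not in the sources used here. By the same legend the cells were sorted from more than 1 mouse, and cells cannot be traced to a mouse. Each sort is 1 library, so no comparison has a replicate, no test was made and no p-value is given. Both sorts were gated on E-cadherin protein, so the RNA levels describe the gates as well as the cells, and an RNA count does not measure the protein at the cell surface.

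E-cadherin is a transmembrane protein that holds neighbouring epithelial cells together by binding E-cadherin on the next cell. Inside the cell, beta-catenin or plakoglobin binds the tail of the cadherin and alpha-catenin links that complex to actin, while p120-catenin binds nearer the membrane and keeps the cadherin from being taken up and degraded. Beta-catenin also acts in the nucleus as the effector of Wnt signalling. In mouse blood formation E-cadherin is known as a mark of the basophil and mast cell lineage.

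The files held unique molecular identifier (UMI) counts, where each UMI stands for 1 captured RNA molecule. After the cell filter of the study, 6479 cKIT+ cells with a median of 13039 UMIs and 3662 cKIT- cells with a median of 4416.5 UMIs were kept. Levels are given as CPM, the UMIs of a gene summed over a group of cells and scaled to a fixed total of UMIs. Because the cKIT- cells were shallower, shares of cells with a UMI were taken after thinning each cell to 2000 UMIs. Cells below that depth, 345 of the cKIT+ and 176 of the cKIT- library, were not used for shares. Intervals are 95% intervals, exact Poisson for levels and exact binomial for shares and ratios, and cover counting error only. The libraries shared 10 cell barcodes, and leaving those cells out moved the Cdh1 ratio of the sorts by less than its interval. Kit, the gene of the sorted receptor, was at 37.1 CPM in the cKIT+ library against 0.875 CPM in the other. The summed level of 10 basophil markers was 26201 CPM in cKIT+ and 76331 CPM in cKIT- cells, and that of 8 mast cell markers 108 and 14.4 CPM. Most of the mast cell sum was Gzmb, at 89.6 and 12.3 CPM, and nearly all the rest Cma1, at 17.9 and 1.97 CPM. Tpsb2 and Mrgprb1 were at 0 in both libraries. The part of basophil and mast cell content in the differences between the sorts was not tested.

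Cdh1 had 5719 UMIs or 62.8 CPM (61.2 to 64.4) in the cKIT+ library and 4424 UMIs or 193 CPM (188 to 199) in the cKIT- library. Its level was 3.08 times higher in cKIT- cells (2.96 to 3.21), and the intervals lay far apart. After thinning, a Cdh1 UMI was found in 12.1% (11.3 to 12.9) of the cKIT+ library and 34.6% (33.0 to 36.2) of the cKIT- library. Without thinning the shares were 44.5% and 62.0%. The granulocyte/monocyte progenitor-like cells gave a thinned share of 0.803%, from a median of 25842 UMIs, and 8.02% without thinning. They were sorted as E-cadherin+ as well, so they are not a known negative control. All cells of that class were in the cKIT+ library. Among cKIT- cells, 0 of 64 B cell-like cells (exact interval to 5.60%), from a median of 2982 UMIs, held a Cdh1 UMI after thinning. That class leaves out cluster 19, described below, which was led by B lymphocyte genes but got no name. Its cKIT- cells held 16 Cdh1 UMIs, and its thinned share over both libraries was 2.30% (0.630 to 5.78). Cdh1 lies on chromosome 8 from 106603351 to 106670246 on the plus strand (GRCm38), and no annotated gene overlaps it. The highest single cell had 10 Cdh1 UMIs among cKIT+ and 9 among cKIT- cells. Cells with at least 3 made up 11.3% and 14.6%, so the level did not rest on a few cells, and the top 1% of cells held 7.54% and 5.74% of the Cdh1 UMIs.

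Ctnnb1 encodes the armadillo-repeat protein that joins the cadherin tail to alpha-catenin. It was at 79.0 CPM (77.2 to 80.9) in the cKIT+ library and at 122 CPM (118 to 127) in the cKIT- library, 1.55 times higher in the latter (1.48 to 1.62). This direction depends on the scaling: as UMIs per cell, Ctnnb1 was 1.11 in cKIT+ and 0.765 in cKIT- cells. Ctnna1, whose protein carries the link to actin, was at 48.0 CPM (46.6 to 49.5) and 84.3 CPM (80.6 to 88.2), which is 1.75 times higher in cKIT- cells (1.66 to 1.85), and again the order turned in UMIs per cell, with 0.676 and 0.526. Cdh1 kept its order on that scale, with 0.883 UMIs per cKIT+ cell and 1.21 per cKIT- cell. At 2000 UMIs, 14.2% of cKIT+ and 22.7% of cKIT- cells held a Ctnnb1 UMI, and 9.60% and 15.9% a Ctnna1 UMI. Of the 3 members with at least 10 CPM in either library, 1 (Cdh1) passed 2-fold toward the cKIT- sort and 0 toward the cKIT+ sort. Over all 8023 genes at that minimum, 9.06% were 2-fold higher in cKIT- cells and 7.3% in cKIT+ cells.

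The remaining catenins were scarce and had the opposite order. Ctnnd1, the p120-catenin gene, had 593 UMIs or 6.51 CPM (6.0 to 7.05) in the cKIT+ library and 35 UMIs or 1.53 CPM (1.07 to 2.13) in the cKIT- library. It was 4.25 times higher in cKIT+ cells (3.02 to 6.16), and the thinned shares were 1.24% and 0.258%. Jup was at 3.80 CPM (3.41 to 4.22) and 2.67 CPM (2.04 to 3.43), a ratio of 1.42 (1.08 to 1.90), and 1.11% and 0.516% of thinned cells held a UMI. Counting every gene with at least 10 UMIs over both libraries, all 5 members were included and 2 passed 2-fold, Ctnnd1 toward cKIT+ and Cdh1 toward cKIT-. At that minimum 17% of 14741 genes were 2-fold higher in cKIT+ cells and 11.4% in cKIT- cells. Relative to its partners, Cdh1 gave 0.794 UMIs for each Ctnnb1 UMI in cKIT+ cells (0.767 to 0.822) and 1.58 in cKIT- cells (1.51 to 1.66). For each Ctnnd1 UMI there were 9.64 Cdh1 UMIs in cKIT+ cells (8.86 to 10.5) and 126 in cKIT- cells (90.7 to 182).

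**Figure D1:**
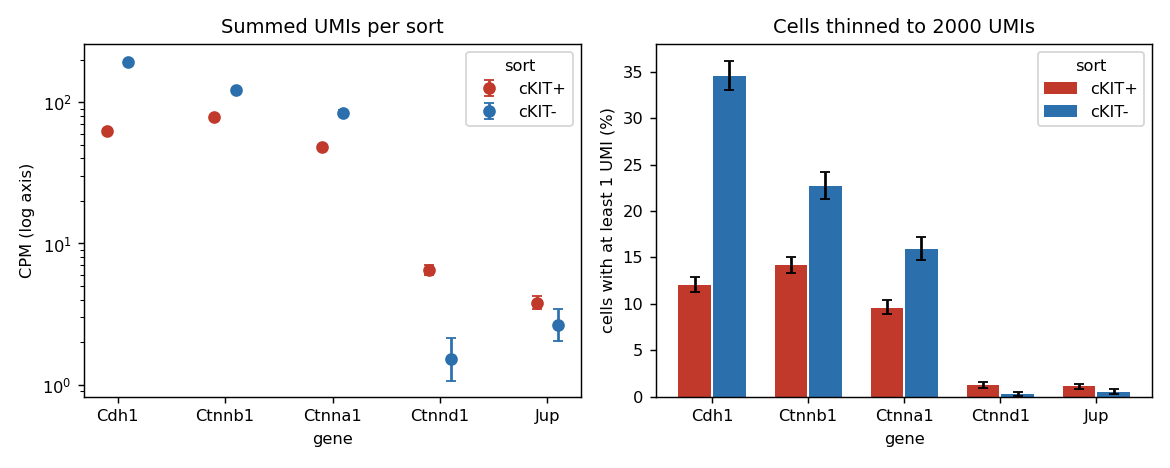
Level of each gene in the cKIT+ library (red) and the cKIT- library (blue), as CPM on a log axis (left) and as the percentage of cells with at least 1 UMI after thinning to 2000 UMIs per cell (right); error bars are 95% counting intervals. Cdh1, Ctnnb1 and Ctnna1 were higher in the cKIT- library (193, 122 and 84.3 CPM), and Ctnnd1 and Jup were higher in the cKIT+ library (6.51 and 3.80 CPM).

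Beta-catenin and plakoglobin are close relatives that take the same place on the cadherin tail, and in these cells Ctnnb1 gave far more UMIs than Jup. The bases before a start of each are shown because this pair is the one within the complex that can replace each other and was unequal in both libraries. RefSeq sequences (GRCm38.p6) were at hand for 3 of the 5 genes, Ctnnb1, Ctnnd1 and Jup. The letters GATA, searched on both strands, are in capitals. The Ctnnb1 window is chr9:120933150-120933399 on the plus strand and the Jup window is chr11:100397791-100398040 on the minus strand, each the 250 bases before 1 RefSeq transcript start, and neither overlaps an annotated exon. Ctnnb1 has a second RefSeq start in the table, whose window (chr9:120933328-120933577) overlaps an exon and is not printed. In the GENCODE annotation the Ctnnb1 gene begins further upstream, so both of its windows lie within the annotated gene.
Ctnnb1: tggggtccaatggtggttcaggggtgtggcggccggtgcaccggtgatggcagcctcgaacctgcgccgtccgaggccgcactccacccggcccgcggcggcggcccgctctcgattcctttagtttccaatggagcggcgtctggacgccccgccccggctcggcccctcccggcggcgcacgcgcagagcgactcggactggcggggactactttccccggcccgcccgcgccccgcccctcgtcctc
Jup: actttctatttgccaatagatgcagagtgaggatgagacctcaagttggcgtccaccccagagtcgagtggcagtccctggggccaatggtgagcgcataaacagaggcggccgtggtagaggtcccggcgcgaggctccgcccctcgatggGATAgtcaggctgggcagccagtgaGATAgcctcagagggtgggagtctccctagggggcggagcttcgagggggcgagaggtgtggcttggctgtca
The Ctnnb1 window printed had 74.8% G or C, 35 CG pairs and 0 matches to GATA, and the window of the second start had 1 match. The Jup window had 62% G or C, 13 CG pairs and 2 matches to GATA. Among 32851 windows of this length, 53.6% held GATA. The E-box CACCTG, which the Snail and Zeb repressors of Cdh1 bind, stood in neither window and in 17.2% of all windows, and a match or its absence says nothing about binding.

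Annotation of the catenin genes limits some of the counts. Ctnnb1 (chromosome 9, 120929216 to 120960507, plus strand) overlaps Ulk4 and 4930593C16Rik on the opposite strand and the microRNA gene Mir7090 on its own strand. Ctnna1 (chromosome 18, 35118859 to 35254779, plus strand) overlaps Lrrtm2 on the opposite strand, and Ctnnd1 (chromosome 2, 84600071 to 84650765, minus strand) overlaps the gene model Gm28635 on its own strand. Jup (chromosome 11, 100368958 to 100397763, minus strand) overlaps none. Whether the counting used strand is not given in the sources used here.

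Cells were then grouped into 25 clusters and named from marker genes, none of which is a member of the complex, and none of the members was among the 2000 variable genes that made the clusters. Basophil-like clusters held 3918 cKIT+ and 3254 cKIT- cells. Within them Cdh1 was at 87.4 CPM (85.1 to 89.8) in cKIT+ and 207 CPM (201 to 213) in cKIT- cells. Ctnnb1 was at 76.2 and 125 CPM, Ctnna1 at 56.0 and 87.0 CPM, Ctnnd1 at 5.58 and 0.90 CPM, and Jup at 3.14 and 2.46 CPM. The order of the sorts was thus that of the whole libraries for each of the 5 genes. For Jup, however, the intervals overlapped (2.71 to 3.63 in cKIT+ and 1.84 to 3.23 in cKIT- cells). At 2000 UMIs per cell, 16.7% of the cKIT+ and 38.3% of the cKIT- basophil-like cells held a Cdh1 UMI.

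Over both libraries, Cdh1 was highest in cluster 11, whose cells were shallow (median 1759 UMIs) and held eosinophil together with basophil genes, at 165 CPM (140 to 193). Basophil-like cells followed at 119 CPM (117 to 121). The pooled values mix the sorts unequally, since cluster 11 held 400 cKIT+ and 19 cKIT- cells. At 2000 UMIs, a depth that 179 cells of cluster 11 reached, the pooled order did not hold. A Cdh1 UMI was then held by 22.9% of cluster 11 (17.0 to 29.8) and 26.3% of basophil-like cells (25.3 to 27.3), with overlapping intervals. In the cKIT+ library alone cluster 11 was at 143 CPM (119 to 169) and basophil-like cells at 87.4 CPM. Thinned shares there were 19.8% (14.1 to 26.5) and 16.7% (15.6 to 17.9), which overlap. The 19 cKIT- cells of cluster 11 were at 739 CPM (483 to 1083), from 26 UMIs. The 207 CPM of cKIT- basophil-like cells lay below that and above the pooled value of cluster 11. Next came 42.9 CPM in cluster 9, led by Gzmb and Cma1, and 28.7 CPM in cluster 19, led by Ighd and other B lymphocyte genes but with too few of the fixed markers for a name. Neutrophil-like cells were at 18.5 CPM, from 112 Cdh1 UMIs. In the cKIT+ library cluster 15 held 106 of their 107 Cdh1 UMIs and cluster 17 held 1. The 58 cKIT- cells of cluster 17 held 3. Each of the 7 classes below these was at 10.8 CPM or less, and among them no class differed from its neighbour in the order beyond counting error. They were eosinophil-like (10.8 CPM), dendritic cell-like (9.38), erythroid-like (8.41), macrophage-like (7.20), monocyte-like (5.74), granulocyte/monocyte progenitor-like (5.13) and B cell-like cells (4.61), the last without cluster 19. The erythroid-like value rested on 8 UMIs in 82 cells (3.63 to 16.6 CPM) and the B cell-like value on 3 UMIs in 120 cells. Prss34, a basophil protease gene at 23685 CPM in basophil-like cells, was also counted in every class ranked below them. It was between 247 CPM in dendritic cell-like cells and 5241 CPM in cluster 19, with 2188 CPM in neutrophil-like and 1769 CPM in erythroid-like cells. Whether the Cdh1 UMIs of these classes came from the cells themselves was not tested.

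The catenins had another order. Ctnnb1 was found in every class, between 54.0 CPM in neutrophil-like cells and 393 CPM (342 to 448) in the 116 macrophage-like cells, and basophil-like cells, at 89.0 CPM, did not differ beyond counting error from the classes next to them. Ctnna1 was highest in dendritic cell-like (120 CPM) and macrophage-like cells (90.1 CPM), 64.1 CPM in basophil-like cells and lowest, at 18.7 CPM, in the granulocyte/monocyte progenitor-like class. Ctnnb1 in those progenitor-like cells was at 78.9 CPM, near the 76.2 CPM of cKIT+ basophil-like cells, whose Ctnna1 was at 56.0 CPM. Ctnnd1 was highest in macrophage-like cells at 45.0 CPM (29.1 to 66.5) and Jup there at 52.2 CPM (35.0 to 75.0). Dendritic cell-like cells had the next Jup level, 21.1 CPM, and Ctnnd1 was next in monocyte-like cells at 19.1 CPM. Basophil-like cells, at 4.35 and 2.97 CPM, stood below the middle of the order for both. Epcam, an adhesion gene of epithelia, was at 25.8 CPM in the dendritic cell-like cluster, and Krt5, Krt14 and Krt19, keratins of epithelial cells, were at 0 in both libraries, while the keratin gene Krt18 was at 31.3 CPM in cKIT+ and 9.27 CPM in cKIT- cells. Of 8 epithelial markers 5 had a UMI in each library, with a summed level of 32.6 CPM in cKIT+ and 10.1 CPM in cKIT- cells, most of it Krt18.

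Prss34, a protease of maturing basophils, was used to order the cells by its share of the UMIs of a cell. With a limit of 1%, 2134 cKIT+ cells were Prss34-high and 4345 low, and in the cKIT- library 1932 were high and 1730 low. In cKIT+ cells Cdh1 was at 112 CPM in Prss34-high and 35.7 CPM in Prss34-low cells, 3.15 times higher (2.98 to 3.32). In cKIT- cells the order was the reverse, with 178 CPM in Prss34-high and 239 CPM in Prss34-low cells, a ratio of 0.745 (0.699 to 0.794), although as UMIs per cell it was 1.95. Ctnna1 followed Cdh1, with 61.1 against 40.9 CPM in cKIT+ cells (ratio 1.49, 1.41 to 1.59) and 81.5 against 92.5 CPM in cKIT- cells (0.881, 0.797 to 0.975), the latter turning to 2.31 as UMIs per cell. Ctnnb1 was nearly even in cKIT+ cells, at 75.8 and 80.8 CPM (0.938, 0.892 to 0.985), which became 1.04 as UMIs per cell, and in cKIT- cells it was at 112 and 152 CPM (0.738, 0.681 to 0.80), which became 1.93. Of the 3 members at 10 CPM, 1 (Cdh1) was 2-fold higher in Prss34-high cKIT+ cells, against 2.13% of 7782 genes, and 0 in Prss34-low cells, against 3.71%. In the cKIT- library 0 of 3 passed 2-fold either way, where 9.2% of 8094 genes were higher in Prss34-high and 11.5% in Prss34-low cells.

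Prss34-low cells also include other classes, so the finer steps are given in basophil-like cells. In cKIT+ cells Cdh1 was at 50.6 CPM below a Prss34 share of 0.1%, 72.2 CPM from 0.1 to 1%, 102 CPM from 1 to 3%, 119 CPM from 3 to 5% and 152 CPM (138 to 167) from 5% up. In cKIT- cells the same steps gave 338, 303, 242, 190 and 159 CPM (151 to 166). The series ran in opposite directions and met at the highest Prss34 share, where the intervals of the libraries overlapped. The low steps did not hold like cells in the sorts. Below a share of 1%, 1231 cKIT+ cells had a UMI of Mki67 or Top2a, genes of dividing cells, and 647 had none. Of the cKIT- cells below that share, 40 had such a UMI and 1306 had none. The part of this difference in the opposite directions was not tested. Median UMIs per cell differed along the cKIT- steps, from 2893 below 0.1% to 9507 from 5% up, and were between 12563 and 14879 along the cKIT+ steps. Shares at 2000 UMIs kept these directions at the ends, with 11.3% and 24.9% of cKIT+ cells and 47.1% and 28.4% of cKIT- cells.

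Ctnna1 had the same pattern with a smaller range, from 45.4 to 67.3 CPM over the cKIT+ steps and from 105 to 81.1 CPM over the cKIT- steps. Ctnnb1 stayed between 71.9 and 80.9 CPM in all 5 cKIT+ steps and was at 178, 164, 128, 111 and 110 CPM in the cKIT- steps. Unlike Cdh1, Ctnnb1 was apart between the sorts at the highest Prss34 share, with 80.6 CPM (70.6 to 91.5) in cKIT+ and 110 CPM (104 to 117) in cKIT- cells. Ctnnd1 was at 7.78, 6.26, 4.87, 3.6 and 2.05 CPM over the cKIT+ steps, so it was highest where Cdh1 was lowest. In cKIT- basophil-like cells it had 19 UMIs in all and no step exceeded 2.70 CPM. Jup went from 4.62 CPM in the lowest to 1.71 CPM in the highest cKIT+ step, where only 5 UMIs were counted.

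**Figure D2:**
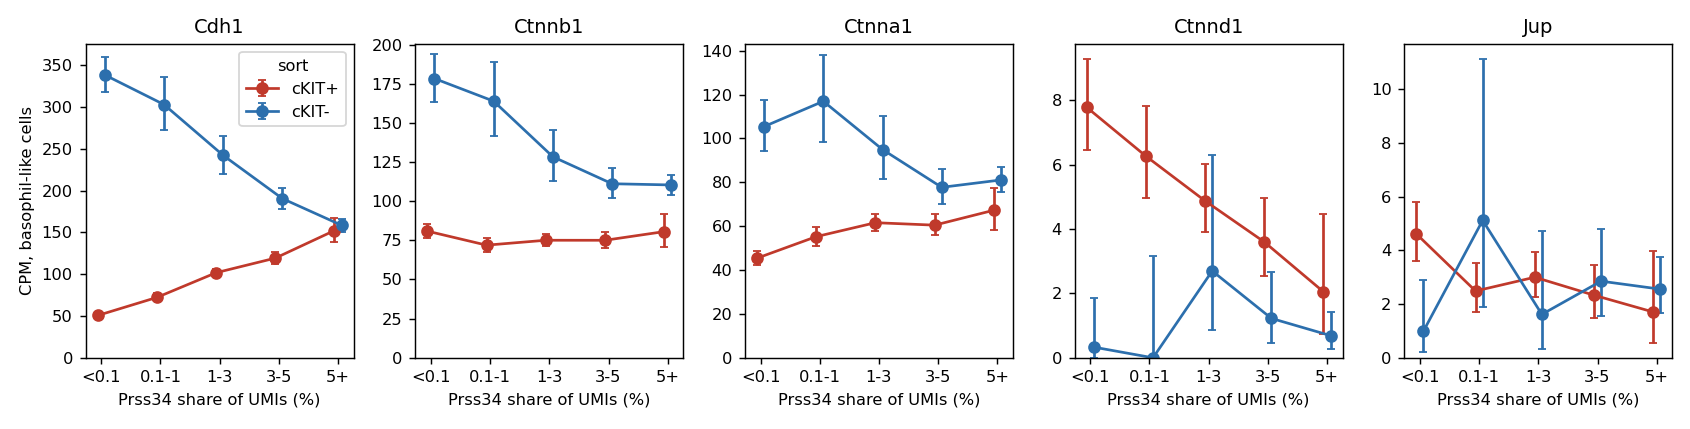
Level (CPM, each axis from 0) of the 5 genes in basophil-like cells, by the Prss34 share of the UMIs of a cell, for the cKIT+ library (red) and the cKIT- library (blue); error bars are 95% counting intervals. Cdh1 was higher from step to step in cKIT+ cells (50.6 to 152 CPM) and lower in cKIT- cells (338 to 159 CPM), and Ctnnd1 was lower from step to step in cKIT+ cells (7.78 to 2.05 CPM).

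Mki67 and Top2a, genes of dividing cells, had at least 1 UMI in 4164 of the cKIT+ cells and 1201 of the cKIT- cells. Cdh1 was lower in cells with such a UMI than in cells without, at 60.5 against 71.1 CPM in the cKIT+ library (ratio 0.851, 0.801 to 0.904) and, in the cKIT- library, 160 against 235 CPM (0.680, 0.641 to 0.722). The cKIT+ order did not hold at equal depth, where the ratio was 1.03, and as UMIs per cell the ratios were 1.73 and 1.70. Ctnnb1 had ratios of 0.925 and 0.831 and Ctnna1 of 0.869 and 0.913, all of which exceeded 1 as UMIs per cell. Of the 3 members at 10 CPM, 0 passed 2-fold in either library. Over all genes, 4.11% were 2-fold higher and 2.9% lower in cells with Mki67 or Top2a of the cKIT+ library, and 9.16% and 7.12% of the cKIT- library. In the cKIT+ library Jup differed most, with 2.85 CPM in cells with and 7.26 CPM in cells without such a UMI, 2.55 times higher in the latter (2.04 to 3.17). Jup is below 10 CPM, so the shares above do not cover it. In cKIT+ basophil-like cells it was at 3.04 and 5.77 CPM in Prss34-low cells with and without such a UMI. In Prss34-high cells it was at 2.49 and 3.65 CPM, with overlapping intervals. In the cKIT- library it was at 2.71 and 2.62 CPM.

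Within basophil-like cells both splits were crossed. Among cKIT+ cells Cdh1 was lowest, at 51.0 CPM (48.0 to 54.1), in Prss34-low cells with Mki67 or Top2a. These cells had a median of 17320 UMIs, against 10434 in those without, and the thinned shares with Cdh1 were 10.2% and 16.1%. The level was 90.5 CPM (83.3 to 98.0) in Prss34-low cells without, 109 CPM (105 to 113) in Prss34-high cells with and 134 CPM (123 to 145) in Prss34-high cells without. In the cKIT- library it was 161 CPM (154 to 169) in Prss34-high cells with, 214 CPM (201 to 227) in Prss34-high cells without and 332 CPM (314 to 350) in Prss34-low cells without, while Prss34-low cells with Mki67 or Top2a numbered 40. At either Prss34 level and in both sorts, the CPM of Cdh1 was thus lower in the cells with Mki67 or Top2a. The intervals overlapped for the group of 40 cells. Thinned shares in Prss34-high cKIT+ cells were 20.3% (18.4 to 22.4) with and 22.7% (18.8 to 27.0) without, which overlap. In Prss34-high cKIT- cells they were 29.5% (26.8 to 32.3) and 36.8% (33.5 to 40.3), which do not. As UMIs per cell, the order in Prss34-high cells was the reverse in both sorts. Ctnnb1 lay between 72.0 and 77.2 CPM in the 4 cKIT+ groups, whose intervals overlapped. In the cKIT- library it was at 111 and 117 CPM in Prss34-high and 174 CPM in Prss34-low cells without Mki67 or Top2a.

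**Figure D3:**
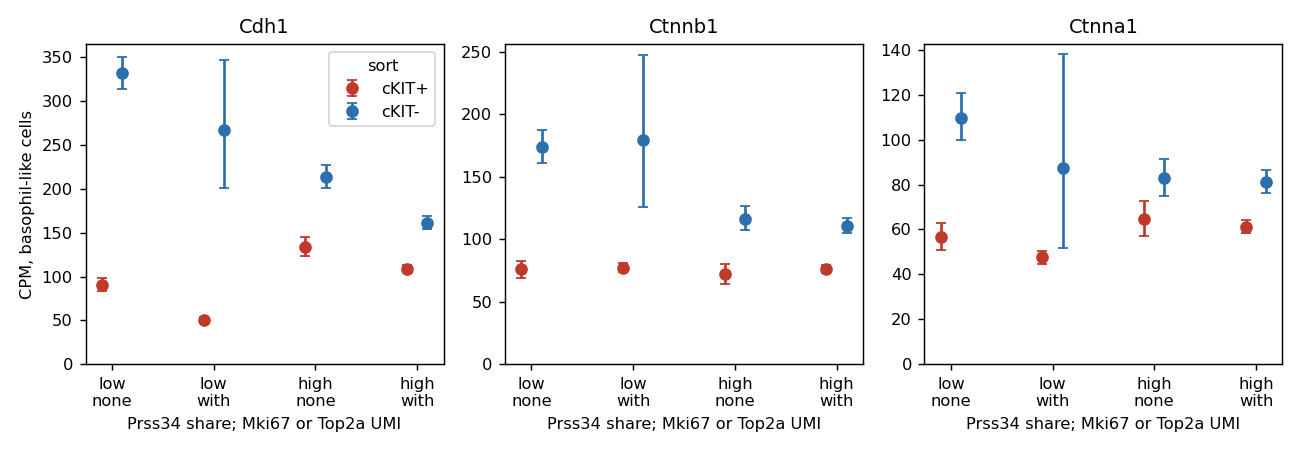
Level (CPM, axes from 0) of Cdh1, Ctnnb1 and Ctnna1 in basophil-like cells split by Prss34 share (low under 1%, high from 1%) and by whether a Mki67 or Top2a UMI was found, for the cKIT+ (red) and cKIT- (blue) libraries; error bars are 95% counting intervals. Cdh1 was lowest in Prss34-low cKIT+ cells with Mki67 or Top2a (51.0 CPM) and highest in Prss34-low cKIT- cells without Mki67 or Top2a (332 CPM).

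In the cKIT+ library Cdh1 was at 44.0 CPM in cluster 16, led by Ung, Fabp5 and Dscc1, 76.2 CPM in cluster 1 and 116 CPM in cluster 6. In the cKIT- library it was at 163 CPM in cluster 12, led by Cd200r4 and Prss34, 268 CPM in cluster 4, led by Ccl3, and 347 CPM in cluster 0, led by Cd7, Ccl6 and Ccl4. The few cKIT+ cells of clusters 12 (95 cells) and 0 (73 cells) were at 250 and 395 CPM, so Cdh1 was higher in cluster 0 than in cluster 12 in both sorts. Among cKIT- cells Ctnnb1 went from 105 to 131 to 180 CPM over clusters 12, 4 and 0, and in the cKIT+ library from 70.7 to 74.7 to 73.3 CPM over clusters 16, 1 and 6. Cluster 2, led by the mitotic genes Cdc25b, Ube2c and Cenpa, was 1.39 times higher in Cdh1 than cluster 5, led by the DNA synthesis gene Rrm2 and histone genes, in the cKIT+ library (1.23 to 1.57) and 1.78 times in the cKIT- library (1.58 to 2.01). Ctnnb1 had ratios of 0.853 and 0.940 over this pair of clusters. The other mitotic cluster, 10, and the histone cluster 3, both of cKIT+ cells, differed less in Cdh1, with 64.8 and 58.0 CPM (ratio 1.12, 1.00 to 1.25).

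In 6 basophil-like clusters both libraries had at least 50 cells, so that the sorts could be set side by side within a cluster. Whether the cells of a cluster were otherwise alike in the sorts was not tested. Cdh1 was higher in the cKIT- cells beyond counting error in 2 of these clusters, higher in the cKIT+ cells in 1 and within counting error in 3. In cluster 18 it was at 59.4 CPM in cKIT+ and 176 CPM in cKIT- cells, in cluster 12 at 250 and 163 CPM, and in cluster 5 at 115 and 113 CPM. Ctnnb1 was higher in the cKIT- cells in 5 of the 6, by 1.31 to 1.44 times, and was at 195 and 180 CPM in cluster 0. Of 6167 genes at 10 CPM in a library in each of these clusters, 4.28% were higher in the cKIT- cells beyond counting error in at least 5 of the 6, 23.5% in at least 2 and 41.2% in at least 1. The counts for Cdh1 and Ctnna1 are thus no more than many genes reach, and a gene with more UMIs passes more easily. Ctnna1 was higher in the cKIT- cells in 1 cluster and within counting error in 5. Ctnnd1 was higher in the cKIT+ cells in 2 of the 6. It was at 4.59 against 0.661 CPM in cluster 2 (20 and 3 UMIs) and 4.26 against 0.765 CPM in cluster 8 (11 and 2 UMIs). The share over all genes was not taken toward the cKIT+ cells, so the counts of Ctnnd1 and Cdh1 in that direction have no background. A difference between libraries and a difference between sorts cannot be told apart here.

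**Figure D4:**
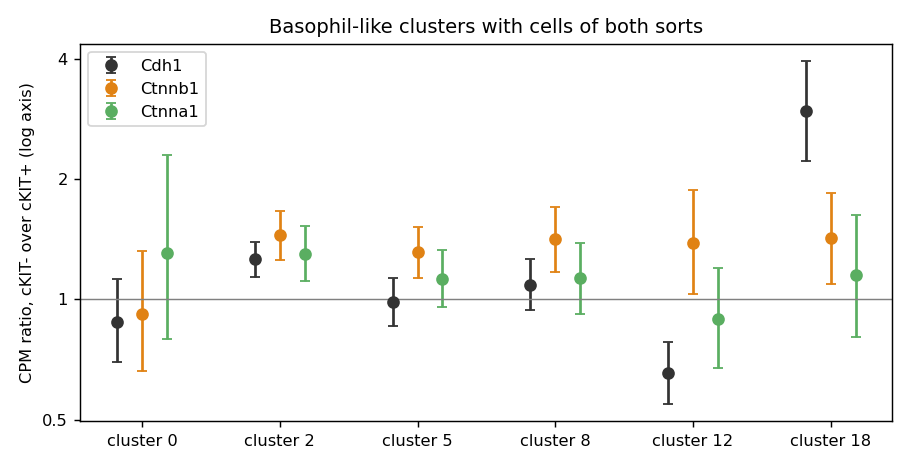
Ratio of CPM in cKIT- over cKIT+ cells (log axis) of Cdh1, Ctnnb1 and Ctnna1 within each of the 6 basophil-like clusters that held at least 50 cells of both libraries; error bars are 95% counting intervals and the line marks a ratio of 1. Ctnnb1 was above 1 in clusters 2, 5, 8, 12 and 18, while Cdh1 ranged from 0.654 in cluster 12 to 2.95 in cluster 18.

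Over 34 groups (a cluster in a library, at least 50 cells) on the scale log2(CPM + 10), Cdh1 had a Pearson r of 0.23 with Ctnnb1, 0.60 with Ctnna1, -0.38 with Ctnnd1 and -0.21 with Jup. Over the 19 basophil-like groups the values were 0.72, 0.85, -0.70 and -0.38. Groups of a library share its depth and preparation, so these values are descriptions. All cKIT- basophil-like cells together held 19 Ctnnd1 and 52 Jup UMIs, so their groups lay near the floor of this scale for both genes. The 5 genes most like Cdh1 over the 34 groups, among 9575 genes, were Cyp11a1 (r = 0.96), Hgf (0.96), Csf2rb2 (0.96), Acss2 (0.96) and Jak2 (0.96). For Ctnnb1 they were Spns1 (0.85), Osbpl11 (0.83) and Pla2g15 (0.82), and for Ctnna1 Cebpg (0.85), Fam105a (0.84) and Itm2c (0.84). Ctnnd1 was most like Tmbim1 (0.90), Kctd12b (0.89) and Cx3cr1 (0.89), and Jup most like Adam22 (0.89), Cd163 (0.88) and Mras (0.88).

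**Figure D5:**
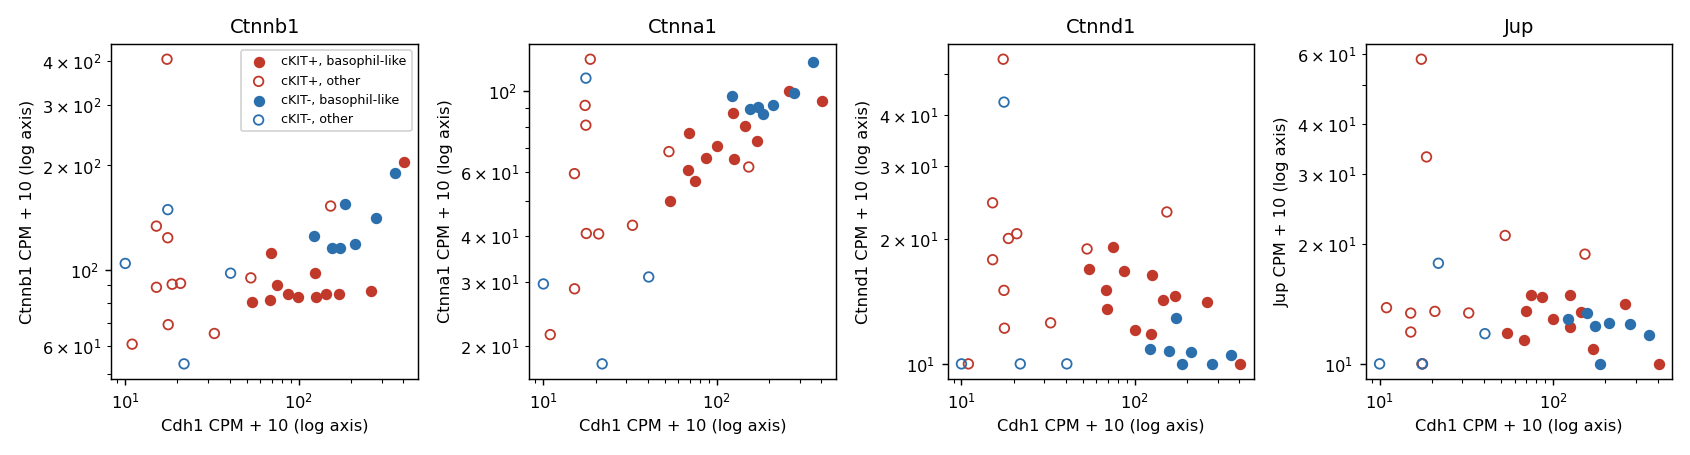
Each catenin against Cdh1 (CPM + 10, log axes) in 34 groups of cells, a cluster in a library, red for cKIT+ and blue for cKIT-, filled for basophil-like groups. Over the filled points Pearson r on this scale was 0.72 for Ctnnb1, 0.85 for Ctnna1, -0.70 for Ctnnd1 and -0.38 for Jup.

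In single cells, Ctnnb1 and Ctnna1 were compared between basophil-like cells with and without a Cdh1 UMI. At 2000 UMIs, 26.2% of cKIT- basophil-like cells with a Cdh1 UMI (23.7 to 28.8) and 21.3% of those without (19.5 to 23.2) held a Ctnnb1 UMI. In cKIT+ cells the shares were 14.5% (11.9 to 17.5) and 13.4% (12.3 to 14.6), whose intervals overlapped. For Ctnna1 they were 17.9% and 16.6% in cKIT- cells and 11.8% and 10.3% in cKIT+ cells, again overlapping.

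Other genes of the junction were described from lists made with earlier results of these data known. The counts below are of genes past 2-fold between the sorts at 10 CPM, and stand against 9.06% of all genes toward cKIT- and 7.3% toward cKIT+, so that 0 or 1 of a few genes is near that share. None of 12 other cadherins reached 10 CPM in a library. Cdh11 was the most abundant, at 5.19 CPM in cKIT+ and 3.85 CPM in cKIT- cells, and Cdh2 was at 0 in both. Among 11 relatives of the catenins 3 were measured at 10 CPM and 1 passed 2-fold, Pkp3, a plakophilin of the p120 family that serves desmosomes in epithelia, at 19.5 CPM in cKIT+ and 62.5 CPM in cKIT- cells. Like Cdh1, Pkp3 was higher in Prss34-high cKIT+ cells (30.6 against 13.5 CPM), over all kept cells and thus with other classes among the Prss34-low cells. Of 12 nectin and tight junction genes 2 were measured, and Tjp3, a scaffold of tight junctions, was at 6.12 and 15.7 CPM.

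Of 9 actin linkers measured, 3 were 2-fold higher in cKIT- cells and 2 in cKIT+ cells. Vcl, vinculin, which binds alpha-catenin, was at 31.4 CPM in cKIT+ and 138 CPM in cKIT- cells. Zyx was at 92.2 and 248 CPM and Vasp, which extends actin filaments, at 149 and 416 CPM. Actn1, an actin cross-linker, had the opposite order with 18 and 7.52 CPM, as did Pdlim1 with 19.0 and 3.59 CPM. The median log2 ratio of cKIT+ over cKIT- was -0.45 for the 9 and -0.03 over all genes measured.

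All 16 genes of cadherin trafficking and shedding were measured and 3 were 2-fold higher in cKIT- cells: Rab11a (80.4 and 174 CPM), a GTPase of recycling endosomes, Numb (9.75 and 21.5 CPM) and Rap1b (162 and 417 CPM), a GTPase of cell adhesion. Of 8 measured kinases and phosphatases 1 passed, the Src family kinase Fyn, at 43.4 and 124 CPM. Among receptors for E-cadherin on lymphocytes, Itgb7, the integrin chain that pairs with Itgae, was at 57.2 and 227 CPM, while Itgae itself was at 0.176 and 0.481 CPM. The median log2 ratio was -0.58 for the trafficking list and -0.34 for the kinases and phosphatases, and Itgb7 was the only receptor measured at 10 CPM.

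For E-box repressors of Cdh1, 0 of 4 measured passed 2-fold between the sorts. Zeb2 was at 108 and 68.8 CPM. Within the libraries it was lower in Prss34-high cells, at 55.4 against 136 CPM in cKIT+ and 41.6 against 148 CPM in cKIT- cells. The values by Prss34 share in this paragraph are over all kept cells, so the Prss34-low cells include classes other than basophil-like. Of the 4, 1 was 2-fold higher in Prss34-low cKIT+ cells and 2 in Prss34-low cKIT- cells, against 3.71% and 11.5% of all genes. In the cKIT- library Cdh1 was likewise lower in Prss34-high cells, at 178 against 239 CPM. In the cKIT+ library Cdh1 was higher in Prss34-high cells, at 112 against 35.7 CPM. A relation between Zeb2 and Cdh1 was not tested. Snai1, Snai2 and Twist1 were below 0.14 CPM throughout. Of 3 measured factors that the study names as Cdh1 regulators, Gata2 passed, at 496 CPM in cKIT+ and 1132 CPM in cKIT- cells. In the Wnt pathway, 0 of 11 destruction complex genes passed. Tle1, a co-repressor of the nuclear partners, was the 1 of 6 of those that did, at 17.6 and 43.9 CPM. Rnf43, a ligase that removes Wnt receptors from the membrane and is itself a Wnt target, was at 4.92 and 29.5 CPM. It was the 1 of 3 target genes that passed, and the 1 of 6 genes measured from the list of Wnt receptors and co-receptors. That list also held Dishevelled genes, whose proteins act inside the cell, and no Frizzled receptor gene reached 10 CPM. Axin2, another target gene of the pathway, stayed under 10 CPM, with 1.49 and 5.42 CPM.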

How the data were processed

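The bone marrow sorts E-cadherin+cKIT+ and E-cadherin+cKIT- were sequenced as 1 10x Genomics 3' library each. The methods name version 3 of the kit and the labels version 2. The authors used Cell Ranger 3.0.2 and mm10, and the deposited matrices hold raw UMI counts. The gene annotation is not given in the sources used here.

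Here the cell filter of the study was applied to each library. Cells in the top or bottom 1% by number of genes, or in the top 1% by UMIs, were dropped. Genes seen in 40 cells or more were used for this filter and for the clusters. Levels, ratios and 2-fold counts were taken from all 31053 genes without that gene filter. Clusters came from Seurat 5.3.0 in R 4.3.3 (2000 variable genes, 15 principal components, resolution 1). A marker was on in a cluster at 20 CPM and 10% of its highest cluster, with at least 3 on for a name and 5 of 10 for basophil-like, a rule set after the clusters were seen. Cluster 11 carried both eosinophil and basophil markers and is named for both. Scrublet (Scanpy 1.11.5) called 256 cKIT+ and 3 cKIT- cells, so its call did not work in the cKIT- library. Doublets were kept, and leaving out the 320 cKIT+ and 105 cKIT- kept cells of highest score was an alternative. edgeR 4.0.16 served for TMM scaling alone. Coordinates and overlaps came from GENCODE release M21 (GRCm38). The 2-fold call was checked on simulated counts with 4-fold changes and counting error alone. That check cannot show how calls fare under variation between mice or libraries, which it left out.

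The members and the 13 pathway lists were chosen with earlier results of these data known. Genes named are the members, list genes past 2-fold or among the 3 highest of a list, the genes used for sorting and splitting, and those with the highest r with a member. Cdh11, Cdh2, Itgae, Axin2, Snai1, Snai2 and Twist1 were named after their values were seen. Each library is 1 sample, so p-values were not computed. A count of 0 allows up to 3 counts of the total. PCR duplicates were removed by UMI, and intervals leave out the variation between mice and libraries.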

Additional observations from a re-analysis of the deposited data

Results flagged for a closer look

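The order of Prss34-high and Prss34-low cells differed between the libraries for 2 genes. The Cdh1 ratio was 3.15 in cKIT+ and 0.745 in cKIT- cells. The Ctnna1 ratio was 1.49 and 0.881. The difference between the libraries was not tested, since each is 1 sample. In basophil-like cells alone the Cdh1 ratios were 1.87 and 0.539. The Prss34-low basophil-like cells differed between the sorts. With and without a Mki67 or Top2a UMI there were 1231 and 647 such cells in cKIT+, and 40 and 1306 in cKIT-. The part of this in the ratios was not tested. Median depth differed along with the Prss34 share in the cKIT- library, and its part in the result was not tested.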

How the results depend on the processing

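No paired analysis was possible because each sort is 1 library. Of 51 alternative values of the Cdh1 ratios, 29 stayed within the counting interval, 17 moved beyond it in the same direction and 5 reversed, and of 204 for the catenins 160, 31 and 13 did. Levels by class were checked in basophil-like, erythroid-like, macrophage-like, dendritic cell-like and granulocyte/monocyte progenitor-like cells only. All 60 values obtained stayed within their intervals at resolution 0.5, with 30 principal components and with the members left out of the variable genes. The last setting changed nothing because no member was among those genes. Some of these classes were not found at the other settings and gave no value there. Taking out the 10 shared barcodes was chosen after seeing the data and moved no ratio beyond its interval. UMIs per cell compares cells of unequal depth, and the cause of the other moves was not tested.

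Between the sorts, the ratio of Cdh1 in cKIT+ to cKIT- cells (0.324) came to 0.304 both without the 10 most abundant genes and at 2000 UMIs, 0.731 as UMIs per cell and 0.422 in basophil-like cells. The Prss34 ratio in cKIT+ cells (3.15) was 2.74 with cells weighted equally, 3.48 as UMIs per cell, 2.81 at 2000 UMIs, 1.87 in basophil-like cells, 3.65 with a limit of 0.5% and 2.61 with 2%. In cKIT- cells (0.745) it was 0.795 without the 10 most abundant genes, 1.95 as UMIs per cell, 0.818 at 2000 UMIs and 0.539 in basophil-like cells. The ratio of cells with over without Mki67 or Top2a in the cKIT+ library (0.851) was 0.935 with cells weighted equally, 1.73 as UMIs per cell, 1.03 at 2000 UMIs, 0.769 in basophil-like cells and 1.02 when the UMIs were called after thinning. In the cKIT- library (0.680) it was 1.70 as UMIs per cell, 0.613 in basophil-like cells and 0.765 when called after thinning.

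As UMIs per cell, Ctnna1 ratios reversed to 1.28 (sort), 2.31 (Prss34, cKIT-), 1.77 (Mki67 or Top2a, cKIT+) and 2.28 (cKIT-). Ctnnb1 ratios reversed to 1.45 (sort), 1.04 and 1.93 (Prss34, cKIT+ and cKIT-), and 1.88 and 2.07 (Mki67 or Top2a), and the cKIT+ value was 1.03 in basophil-like cells. Ctnnd1 reversed to 1.47 as UMIs per cell and 1.01 at 2000 UMIs (Mki67 or Top2a, cKIT+), and to 4.46 in basophil-like cells (Prss34, cKIT-), which held 19 of its UMIs.

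Counts of genes past 2-fold moved with the minimum. At 50 CPM, and with 10 UMIs in place of a CPM minimum, they were 198 and 2500 (higher in cKIT+), 371 and 1675 (higher in cKIT-), 87 and 499 (Prss34-high, cKIT+), 64 and 2262 (Prss34-low, cKIT+), 316 and 1405 (Prss34-high, cKIT-), 350 and 1995 (Prss34-low, cKIT-), 133 and 791 (with Mki67 or Top2a, cKIT+), 53 and 1638 (without, cKIT+), 317 and 1252 (with, cKIT-) and 208 and 1589 (without, cKIT-). As UMIs per cell they were 4723 and 142 for the sorts, 5379 and 318 for Prss34 in cKIT-, 4160 and 79 for Mki67 or Top2a in cKIT+, and 5515 and 118 in cKIT- cells. With cells weighted equally, at 2000 UMIs and in basophil-like cells, counts were 453, 436 and 76 for Prss34-low cKIT+ and 430, 410 and 29 for cKIT+ cells without Mki67 or Top2a. Requiring 3 UMIs of Mki67 and Top2a gave 150 for the latter, and calling after thinning gave 66 and, for cells with, 209.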
